A study of Rattus norvegicus with 6 samples.

Results

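The 10 mRNAs described here encode receptors and junction proteins by which endothelial cells, the cells that line blood vessels, are recognised: Kdr, Flt1, Tek, Tie1, Eng, Cdh5, Pecam1, Esam, Vwf and Emcn. They were chosen by gene symbol, and all 10 were found, each on 1 row, among the 17557 rows (17030 symbols) of the table of FPKM (sequenced fragments counted per kilobase of an mRNA and relative to all that mapped). The tissue was the flank tumor formed by PAIII cells, a rat prostate cancer line passaged in animals, injected under the skin of immune-competent Lobund-Wistar rats aged 2 months. Rats A1, A6 and A12 received digitoxin, a cardiac glycoside, at 0.03 mg/kg each day from day 10, and rats B5, B9 and B14 received vehicle alone; all tumors were taken on day 40, so n = 3 in each group. The digitoxin-treated rats were picked from those with low serum IL-6 and CINC-1 and the vehicle rats from those with high levels, so that treatment and serum marker level cannot be told apart. Each library came from 10 punches, 1 mm across, of viable tumor in sections of 300 micron from 1 rat, and the comparison asked how mRNA levels in these tumors differed with digitoxin.

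Vessels grow when VEGF ligands bind the receptor tyrosine kinases VEGFR2, encoded by Kdr, and VEGFR1, encoded by Flt1. The angiopoietins act through a second pair of kinases, TIE2 (Tek) and its partner TIE1 (Tie1), to hold the vessel wall in a quiet or an unstable state. VE-cadherin (Cdh5), CD31 (Pecam1) and ESAM join endothelial cells side by side, endoglin (Eng) is a coreceptor for ligands of the TGFβ family, von Willebrand factor (Vwf) is stored in the cells for clotting, and endomucin (Emcn) is a sialomucin of veins and capillaries.

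The libraries did not group by treatment. The highest correlation across tested rows was that of A12 with B14 (r = 0.985), and the lowest was that of A6 with B14 (r = 0.618). Lung mRNAs were high in 4 of the 6 libraries: the summed FPKM of 10 alveolar genes, with Sftpc (surfactant protein C) the highest, was 51786 (A1), 85014 (A6), 28046 (B5) and 36396 (B9), but 40.9 (A12) and 62.7 (B14). The labels give all 6 as primary tumors, and groups follow the labels throughout. Whether each library stands in its labelled group was not settled. The study tabulated lower Wt1, Epas1 and Tgfbr2 with digitoxin. As labelled, Wt1 averaged 2.53 FPKM with digitoxin and 2.38 with vehicle, so it did not run as tabulated. It would be lower with digitoxin if A1 were exchanged for B9 or for B14. Epas1, at 30.3 and 45.9 FPKM, and Tgfbr2, described with the endoglin pathway, ran as tabulated under the labels. With A1 and B9 exchanged, Epas1 would be higher with digitoxin and Tgfbr2 would hardly differ. With A1 and B14 exchanged, both would still be lower. No count over all tabulated mRNAs is given here. Every group mean, fold change and direction given for digitoxin holds for the libraries as labelled, and the values per tumor do not depend on the labels. FPKM keep no depth, so no counting error is given, and a mRNA at 0 is reported only as listed at 0. In tissue RNA, fewer endothelial cells and less mRNA per endothelial cell cannot be told apart. Nor can mRNA of tumor vessels be told apart from any of lung vessels in the libraries with high lung mRNAs.

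The endothelial mRNAs were detected in every tumor, and 7 of the 10 were lowest in A12 and B14. The exceptions were Eng, Cdh5 and Flt1, and Flt1 alone was highest in those tumors. Over the 10749 rows tested, those averaging 1 FPKM or more, A12 and B14 were the 2 lowest for 29.3% and the 2 highest for 30.1%. The summed FPKM of the 10 was 667 (A1), 985 (A6) and 197 (A12) with digitoxin and 336 (B5), 636 (B9) and 227 (B14) with vehicle. Without Flt1 the sum in A12 and B14 became 137 and 157 FPKM.

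**Figure D1:**
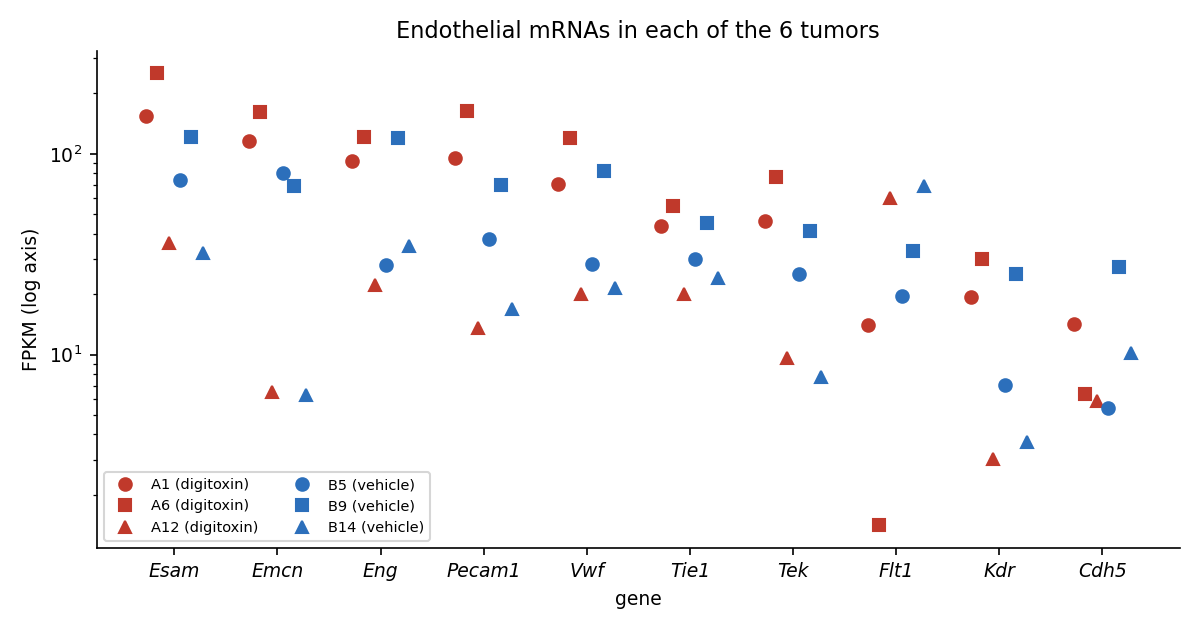
Level of each endothelial mRNA in FPKM (log axis) in the 6 tumors, 1 point per tumor, with digitoxin-treated rats in red and vehicle rats in blue, ordered by mean level. Triangles mark A12 and B14, which lie at the bottom for most genes and at the top for Flt1, where A6 is at 1.41 FPKM.

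Averaged over the 6 tumors, the order of the levels per length was Esam, Emcn, Eng, Pecam1, Vwf, Tie1, Tek, Flt1, Kdr and Cdh5. Esam stood at 112 ± 83.6 FPKM (SD, n = 6) and Cdh5 at 11.6 ± 8.41 FPKM (SD, n = 6). No neighbours in this order differed beyond their spread, since each gap was smaller than the larger of the 2 SDs. The order within a tumor was not the same everywhere: Flt1 ranked first in A12 and B14 but last in A1 and A6, while Esam was among the 3 highest in every tumor.

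The VEGF receptors tended to run in opposite directions across the tumors (r = -0.75 on log2(FPKM + 1), as a description), although B9 exceeded A1 and B5 for both. Kdr, which carries most of the growth signal of VEGF (chromosome 14 from 34557360 to 34618111 as the table gives it), was at an FPKM of 19.4 (A1), 29.8 (A6) and 3.02 (A12) with digitoxin and 7.06 (B5), 25.3 (B9) and 3.67 (B14) with vehicle. Both groups thus held high and low tumors, and their ranges overlapped. Its log2 fold change, digitoxin against vehicle, was 0.45 (standard error 0.96) by limma, with an adjusted p of 0.943.

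Flt1, a receptor that binds VEGF tightly and signals weakly, has its row on chromosome 12 from 11155071 to 11322925 and was at an FPKM of 14.1 (A1), 1.41 (A6) and 60.02 (A12) with digitoxin and 19.6 (B5), 32.7 (B9) and 69.4 (B14) with vehicle. A6, the tumor with the highest Kdr, had the lowest Flt1, and the highest Flt1 was 49.1 times the lowest. The log2 fold change was -1.49 (standard error 1.17; adjusted p = 0.926 by limma), and the groups overlapped. As a log2 ratio of the group means of FPKM it was -0.69, smaller in size than that of Pecam1 (1.12), Esam (0.95), Emcn (0.86), Tek (0.83) or Cdh5 (-0.697). This value rests in large part on A6, since without it the log2 fold change was -0.27, while without A12 it was -2.60. The table has 1 row for Flt1, so the membrane receptor and its soluble form are not separated. The ratio of Flt1 to Kdr was 0.727 (A1), 0.0474 (A6) and 19.9 (A12) with digitoxin and 2.78 (B5), 1.29 (B9) and 18.9 (B14) with vehicle.

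The promoters of these receptors are shown because their mRNAs tended to run in opposite directions, and that of Emcn because it held the most copies of the motif searched. RefSeq promoters (build GRCr8, from 250 bases before to 50 after the gene start) were found for 5 of the 10 genes: Kdr, Flt1, Tie1, Eng and Emcn. Capitals mark GGAA, the core that ETS transcription factors bind, on either strand (TTCC on the printed strand). Sequences run 5′ to 3′ along the gene: Kdr is on chr14:32571813-32572112 (+), Flt1 on chr12:12333180-12333479 (+) and Emcn on chr2:228564289-228564588 (+).
Kdr: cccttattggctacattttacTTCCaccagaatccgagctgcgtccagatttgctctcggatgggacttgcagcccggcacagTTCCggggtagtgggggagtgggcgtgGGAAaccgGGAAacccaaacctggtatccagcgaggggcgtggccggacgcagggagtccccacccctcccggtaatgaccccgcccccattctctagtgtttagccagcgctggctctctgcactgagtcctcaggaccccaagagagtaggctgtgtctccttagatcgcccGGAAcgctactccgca
Flt1: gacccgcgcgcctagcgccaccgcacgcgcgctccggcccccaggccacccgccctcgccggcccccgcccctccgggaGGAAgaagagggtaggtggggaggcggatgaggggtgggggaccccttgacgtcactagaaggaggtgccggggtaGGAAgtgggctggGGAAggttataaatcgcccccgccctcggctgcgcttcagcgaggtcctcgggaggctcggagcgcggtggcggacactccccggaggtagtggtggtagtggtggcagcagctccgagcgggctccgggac
Emcn: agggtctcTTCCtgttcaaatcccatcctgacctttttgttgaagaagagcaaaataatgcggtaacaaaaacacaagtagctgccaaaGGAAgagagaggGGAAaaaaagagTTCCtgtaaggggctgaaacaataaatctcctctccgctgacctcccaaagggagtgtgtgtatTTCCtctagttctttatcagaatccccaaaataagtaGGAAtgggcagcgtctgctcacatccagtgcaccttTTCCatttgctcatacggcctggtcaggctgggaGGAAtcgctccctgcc

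The Kdr promoter held 5 copies of GGAA, that of Flt1 3, Tie1 4, Eng 3 and Emcn 8. At least 1 copy was present in 95.8% of the 33469 rat promoters of this length, so its presence sets none of these genes apart, and 3.90% of promoters had at least as many copies as Emcn. The sequence ACGTG (either strand), 1 form of the hypoxia response core, was in none of the 5 windows and in 19.3% of all promoters. The other form, GCGTG, was not counted, and the printed windows of Kdr and, on the opposite strand, Flt1 hold it. The cores GATAA and ACAAT, which GATA and SOX factors bind, were found in the Emcn window, 1 copy of each, and not in the other 4. They occurred in 26.5% and 33.7% of all promoters. A match describes the letters in the window and no binding was measured here.

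The Tie receptors moved together over the tumors (r = 0.96 on log2(FPKM + 1), n = 6 tumors, as a description), with a wider range for Tek. Tek, the angiopoietin receptor, lies on chromosome 5 from 117672483 to 117799345 and was at an FPKM of 46.4 (A1), 76.3 (A6) and 9.60 (A12) with digitoxin and 25.1 (B5), 41.5 (B9) and 7.78 (B14) with vehicle. A12 and B14 were the low tumors and A1 and A6 exceeded every tumor labelled vehicle, so the overlap came from A12. Its log2 fold change was 0.67 (standard error 0.90; adjusted p = 0.926 by limma). Tie1, an orphan kinase that pairs with TIE2, has its row on the same chromosome from 141084009 to 141111588 and was at an FPKM of 43.8 (A1), 55.0 (A6) and 19.95 (A12) with digitoxin and 29.8 (B5), 45.5 (B9) and 24.1 (B14) with vehicle. With 2.76-fold between the highest and the lowest tumor it varied least of the 10, and its log2 fold change was 0.18 (standard error 0.44).

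Eng lies on chromosome 3 from 17021672 to 17058548 and was at an FPKM of 92.2 (A1), 121 (A6) and 22.2 (A12) with digitoxin and 28.0 (B5), 121 (B9) and 34.8 (B14) with vehicle. B5 was lower than B14, which set Eng apart from the other genes that were low in A12 and B14. Its log2 fold change was 0.35 (standard error 0.80).

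Among the junction genes, Pecam1 and Esam followed each other and Cdh5 did not. Pecam1, on chromosome 10 from 94598950 to 94660385, was at an FPKM of 95.7 (A1), 163 (A6) and 13.5 (A12) with digitoxin and 37.7 (B5), 70.3 (B9) and 16.9 (B14) with vehicle. Esam, on chromosome 8 from 39998698 to 40009626, was at an FPKM of 154 (A1), 252 (A6) and 36.0 (A12) with digitoxin and 74.2 (B5), 122 (B9) and 32.1 (B14) with vehicle. For both genes A1 and A6 were above all tumors labelled vehicle, while A12 was with B14 at the bottom. Their log2 fold changes were 0.74 (standard error 0.98) and 0.75 (standard error 0.81), each with an adjusted p of 0.926 by limma.

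Cdh5, on chromosome 19 from 1022709 to 1072784, was at an FPKM of 14.3 (A1), 6.34 (A6) and 5.85 (A12) with digitoxin and 5.40 (B5), 27.3 (B9) and 10.2 (B14) with vehicle. Its level in A6, the tumor with the most Pecam1, was close to that in A12, the tumor with the least. The number of Pecam1 FPKM per Cdh5 FPKM was 6.70 (A1), 25.7 (A6) and 2.31 (A12) with digitoxin and 6.98 (B5), 2.58 (B9) and 1.65 (B14) with vehicle. The log2 fold change of Cdh5 was -0.47 (standard error 0.63), and without B9 it changed sign, to 0.11.

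Vwf lies on chromosome 4 from 225098520 to 225229257 and was at an FPKM of 71.0 (A1), 120.1 (A6) and 20.02 (A12) with digitoxin and 28.3 (B5), 82.0 (B9) and 21.5 (B14) with vehicle. Emcn lies on chromosome 2 from 261184359 to 261264295 and was at an FPKM of 116 (A1), 161 (A6) and 6.50 (A12) with digitoxin and 80.6 (B5), 69.4 (B9) and 6.27 (B14) with vehicle. After Flt1, Emcn had the widest range, with 25.6-fold between A6 and B14, and in B5 it was the most abundant of the 10. The log2 fold changes were 0.58 (standard error 0.78) for Vwf and 0.59 (standard error 1.45) for Emcn.

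Taking the 10 as a group, 8 had a higher and 2 (Flt1 and Cdh5) a lower mean log2 level with digitoxin, and none passed an adjusted p under 0.05 in limma's test over all rows. Of all rows tested, 0% passed at that threshold. At an unadjusted p under 0.05, 0 of the 10 and 36 of all 10749 rows (0.335%) were met, and the smallest p among the 10 was 0.250, that of Flt1, by limma. The groups overlapped for each of the 10, whereas they did not for 4.16% of all rows. The median log2 fold change of the 10 was 0.52, against -0.16 for all rows, of which 35.1% were above 0 and 64.9% below. Median-of-ratios scaling moved the median of all rows by 0.18 and the median of the 10 to 0.71, and left the direction of each of the 10 as it was. It moved Tie1 to 0.37, Cdh5 to -0.29 and Eng to 0.55, each by over 1.5 times.

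**Figure D2:**
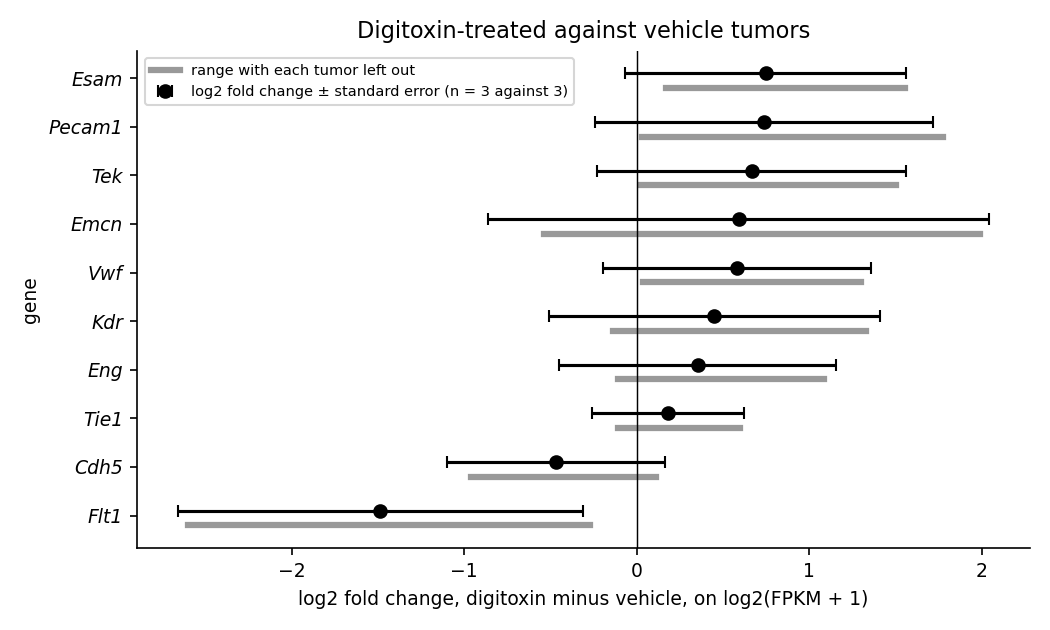
Log2 fold change of each endothelial mRNA, digitoxin minus vehicle, on the log2(FPKM + 1) scale. Black points and bars give the estimate ± standard error (n = 3 against 3), and grey bars give the range with each tumor left out in turn, which reaches from -2.60 to -0.27 for Flt1 and from -0.54 to 1.99 for Emcn.

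With any 1 tumor left out, Flt1 stayed below 0 and Pecam1, Tek, Vwf and Esam stayed above 0, with lowest values of 0.0287, 0.0246, 0.0343 and 0.17, while Cdh5, Kdr, Tie1, Emcn and Eng changed sign in at least 1 such fit. Without A6, 4 of the 10 were higher and the median was -0.11; without B14, 5 were higher and the median was 0.00467; without A12 the median was 1.31, with Pecam1, Flt1 and Esam at an unadjusted p under 0.05 by limma as 19.7% of all rows were, and without B9 it was 1.12 with 9 higher. Without A1 the median was 0.12 and without B5 it was 0.35 with 7 higher. When A12 and B14 were both left out, 8 were higher, the median was 0.85, and Pecam1, Emcn, Esam and Flt1 had an unadjusted p under 0.05 by limma, as did 11% of all rows. Their log2 fold changes were then 1.26, 0.86, 1.04 and -2.13, and their adjusted p was 0.392. With the replicate number as a block, Esam and Tek had an unadjusted p of 0.0276 and 0.0446 by limma, beside 446 rows in all (4.15%), and the adjusted p of both was 0.638. With the mean level of the alveolar genes as a covariate, the median of the 10 was 0.37, with the same 8 above 0 (Kdr, Tek, Tie1, Eng, Pecam1, Esam, Vwf and Emcn).

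The make-up of the endothelial sum differed between tumors of the same group. Flt1 was 30.5% of the summed FPKM of the 10 in A12 and 30.6% in B14, but 2.11% in A1, 0.143% in A6, 5.84% in B5 and 5.15% in B9. Emcn was 17.5% in A1, 16.3% in A6, 24.0% in B5 and 10.9% in B9, and 3.30% in A12 and 2.77% in B14. Vwf stayed between 8.43% (B5) and 12.9% (B9). To set aside the overall amount, each mRNA was expressed as a log2 ratio to the geometric mean of the 10 in the same tumor and compared with an exact two-sided permutation test, whose smallest possible p for 3 against 3 is 0.10. For Esam the ratio was 1.69 ± 0.48 (SD, n = 3) with digitoxin and 1.18 ± 0.30 (SD, n = 3) with vehicle, with an exact p of 0.20. For Flt1 it was -1.42 ± 3.26 (SD, n = 3) against 0.30 ± 1.48 (SD, n = 3), with an exact p of 0.40. The difference for Esam, 0.51, was larger than either SD, but the groups overlapped, with A12 at 1.27 below B5 at 1.503. For the other 9 the difference was smaller than the larger SD. The exact p ran from 0.20 to 0.90 over the 10, and since no gene could reach 0.05 in this design, the test does not show that the make-up was alike.

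**Figure D3:**
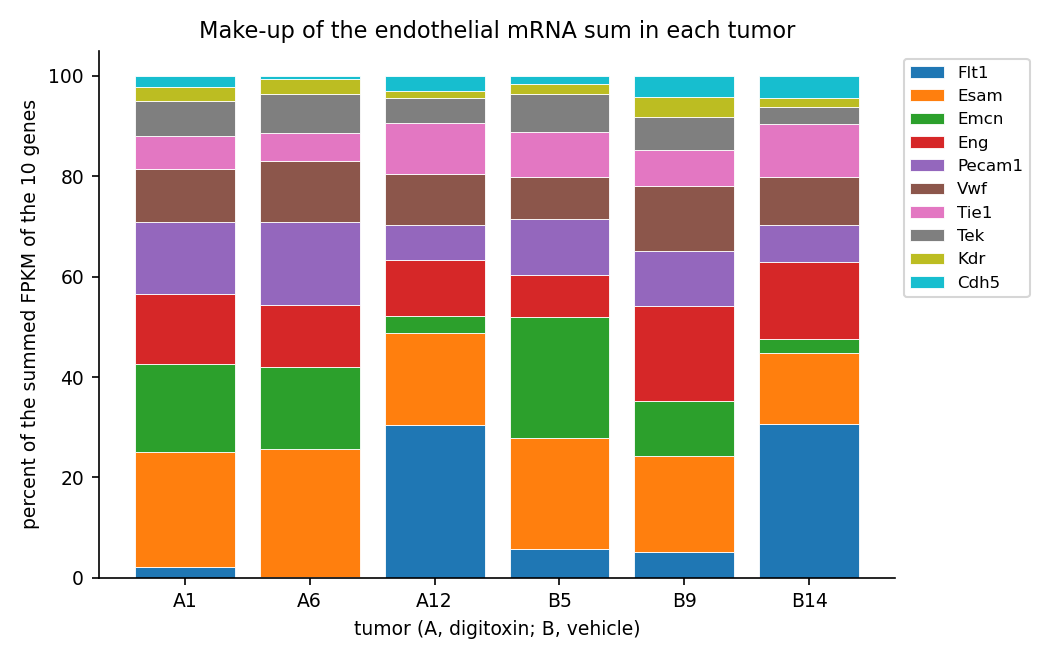
Percent of the summed FPKM of the 10 endothelial mRNAs taken by each in every tumor (A, digitoxin; B, vehicle); each bar adds up to the whole sum. Flt1 (blue, at the base) takes about 30.5% in A12 and 30.6% in B14, and Emcn (green) takes 3.30% and 2.77% there.

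Across the 6 tumors, the 8 genes other than Flt1 and Cdh5 rose and fell together. Pearson's r of log2(FPKM + 1) over their 28 pairs ran from 0.73 to 0.99, with a median of 0.96. With Flt1 the same 8 had r from -0.88 to -0.63, and with Cdh5 from 0.17 to 0.62. These are descriptions over 6 points that share the contrast of A12 and B14 with the rest. The rows most like the mean of the 10 were Fli1 (r = 0.998), Fam134a (0.996), Elmo1 (0.996), Spns2 (0.995), Cachd1 (0.994), Il6st (0.994), Doc2g (0.994), Usp20 (0.993), Fads3 (0.992) and Sfmbt1 (0.992), over n = 6 tumors. Fli1, an ETS transcription factor of endothelial and blood cells, was at an FPKM of 6.95 (A1), 8.06 (A6) and 2.13 (A12) with digitoxin and 3.70 (B5), 7.99 (B9) and 2.53 (B14) with vehicle.

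Other genes of the vessel pathways were read from 11 lists, which hold 101 symbols, of which 94 were in the table and 83 passed the minimum mean. None of the 83 passed the adjusted threshold or an unadjusted p under 0.05, where the smallest p by limma was 0.0591 (Dll1, a Notch ligand). Of the 83, 51 had a log2 fold change above 0 and 32 below, with a median of 0.20. With median-of-ratios scaling 55 were above 0 and the median was 0.39. With 1 tumor left out, the median ran from -0.18 to 0.52 and the number above 0 from 26 to 57. A12 and B14 were the 2 lowest tumors for 43 of them (51.8%) and the 2 highest for 11 (13.3%).

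Among the ligands of the VEGF receptors, Vegfa was the most abundant, at an FPKM of 168 (A1), 108 (A6) and 129 (A12) with digitoxin and 104 (B5), 266 (B9) and 159 (B14) with vehicle. It did not share the low level of Kdr in A12 and B14. Pgf, placental growth factor, which binds Flt1 and not Kdr, was at an FPKM of 13.8 (A1), 4.66 (A6) and 20.9 (A12) with digitoxin and 8.58 (B5), 6.21 (B9) and 15.6 (B14) with vehicle, with A12 and B14 the highest as for Flt1. Of the 4 VEGF ligands tested, 2 were above 0 and 2 below. Both coreceptors tested, Nrp1 and Nrp2, were below 0, with log2 fold changes of -0.92 (standard error 0.80) and -1.36 (standard error 0.99). The angiopoietins were scarce: Angpt1, the activating ligand of TIE2, averaged 1.11 FPKM over the 6 tumors, and Angpt2, its context-dependent antagonist, averaged 3.23 FPKM. Both were below 0, with log2 fold changes of -0.72 (standard error 0.51) and -0.25 (standard error 0.70). With a tumor left out, Angpt1 ran from -1.01 to -0.29 and Angpt2 from -0.76 to 0.35.

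In the endoglin pathway, 5 of 12 tested genes were above 0 and 7 below. Acvrl1, which encodes ALK1, the receptor that endoglin assists, was at an FPKM of 124 (A1), 288 (A6) and 11.3 (A12) with digitoxin and 45.2 (B5), 124 (B9) and 12.4 (B14) with vehicle, and so was low in A12 and B14 as most of the 10 were. Acvrl1 and the target Id1 had the 2 highest log2 fold changes of the list, 0.84 (standard error 1.33) and 0.97 (standard error 1.16). With a tumor left out, Acvrl1 ran from -0.12 to 2.16 and Id1 from 0.071 to 2.16. Id3, another target, had -0.14 (standard error 0.23). The TGFβ receptors Tgfbr2 and Tgfbr1 had -1.002 (standard error 0.65) and -0.995 (standard error 0.65), and Smad5, which carries the signal of ALK1, had -1.05 (standard error 0.82), each with an adjusted p of 0.926 by limma. Tgfbr2 was at an FPKM of 30.6 (A1), 8.40 (A6) and 7.80 (A12) with digitoxin and 21.7 (B5), 51.5 (B9) and 16.6 (B14) with vehicle, and the groups overlapped. Of 13 junction partners, 8 were above 0 and 5 below. Cldn5, the claudin of endothelial tight junctions, was at an FPKM of 286 (A1), 767 (A6) and 3.37 (A12) with digitoxin and 121 (B5), 178 (B9) and 7.17 (B14) with vehicle. Ctnnb1, β-catenin, which binds cadherins in epithelium as well, was at an FPKM of 408 (A1), 38.8 (A6) and 1085 (A12) with digitoxin and 672 (B5), 819 (B9) and 977 (B14) with vehicle, an order closer to that of Flt1.

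The remaining lists gave the same lack of called genes. Above 0 were 4 of 6 genes of storage granules and clotting, both activation adhesion receptors tested (Icam1 and Vcam1), 5 of 7 Notch genes, 8 of 12 endothelial transcription factors, 12 of 14 other endothelial markers and 5 of 9 lung capillary genes. Plvap, a protein of endothelial fenestrae and caveolae, had the highest log2 fold change of these markers, 1.33 (standard error 1.49). Sox18 and Klf2, transcription factors of endothelium, had 0.95 (standard error 1.00) and 0.78 (standard error 1.30). The receptor partner Ramp2 had 1.06 (standard error 1.58). In the lowest of the fits with 1 tumor left out, Klf2 and Ramp2 came to -0.00114 and -0.00320. There the markers Egfl7 and Clec14a came to -0.15 and -1.09, while Plvap and Sox18 stayed at 0.29 and 0.16. Of the defining markers, Robo4 was listed at 0 in 5 tumors and at 0.0311 FPKM in B14, and Cd34 was listed at 0 in 4 tumors and at 0.239 FPKM in A6 and 0.166 in B14. With no read counts, such entries do not show that these mRNAs were absent, and an entry of 0 here can be a failed estimate.

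**Figure D4:**
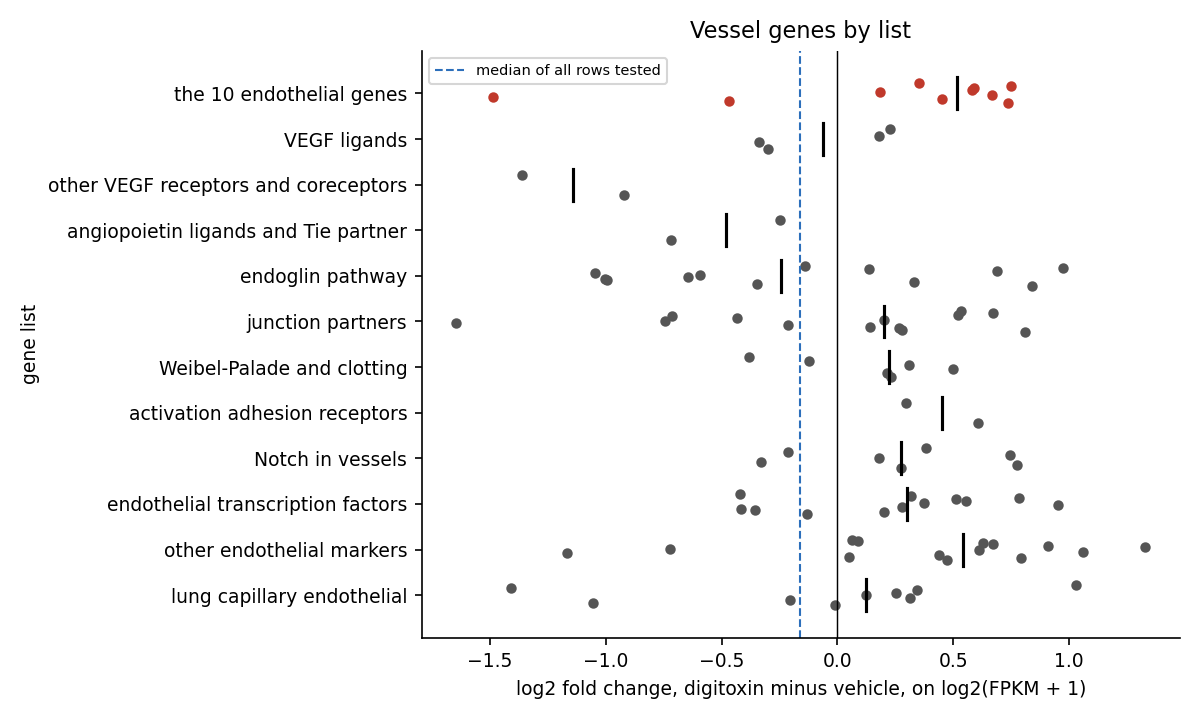
Log2 fold change, digitoxin minus vehicle, of each tested gene in the vessel lists (grey) and of the 10 endothelial genes (red). Black bars are list medians and the dashed line is the median of all rows tested, -0.16; no point passed the adjusted threshold.

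Markers of other cells moved with the endothelial mRNAs across tumors. The summed FPKM of 6 airway genes, led by Scgb1a1, ran from 3.25 to 130833 with digitoxin and from 2.72 to 22872 with vehicle. That of 10 alveolar genes ran from 40.9 to 85014 and from 62.7 to 36396, with Sftpb and Sftpa1 listed at 0 in A12 and B14. That of 6 red blood cell genes ran from 116 to 13133 and from 390.3 to 6042, and that of 10 leukocyte genes from 1549 to 63579 and from 3776 to 33440. Most of the leukocyte sum was S100a8 and S100a9, at 34402 and 27959 FPKM in A6 and 576 and 696 FPKM in A12. A12 and B14 were the 2 lowest tumors for 10 of 10 alveolar, 5 of 6 airway, 5 of 5 red blood cell and 7 of 9 leukocyte genes tested. The part of these cells in the endothelial values was not tested.

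Fibroblast and dividing cells ran the other way. A12 and B14 were the 2 highest tumors for 5 of 6 fibroblast and 7 of 8 cell division genes, and their summed FPKM ran from 223 to 2806 and from 56.4 to 555 with digitoxin, and from 286 to 3957 and from 372 to 528 with vehicle. Col1a2 was listed at 0 in all 6 tumors beside Col1a1 at up to 1665 FPKM, which is the basis for reading an entry of 0 as a possible failed estimate. The 6 epithelial genes, with Krt8 the highest, summed to between 817 and 2979 with digitoxin and between 1659 and 2411 with vehicle.

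Other vessel-associated and blood cells were also read. Lymphatic genes summed to between 27.6 and 638 with digitoxin and between 57.1 and 342 with vehicle, while Prox1, the lymphatic master regulator, had no value above 0.0480 FPKM. Pericyte genes summed to between 97.9 and 173 and between 64.7 and 142, and smooth muscle genes to between 165 and 366 and between 60.1 and 761. Platelet genes, of interest because platelets also carry Pecam1 and Vwf, summed to between 278 and 1720 and between 953 and 1564, with Gp5 listed at 0 in every tumor. Most of this sum was Ppbp, which was listed at 0 in A6 and at 452 to 1652 FPKM in the other tumors, so the low of 278 rests on an entry that can be a failed estimate. Pf4, another platelet gene, was highest in A6, at 255 FPKM. The 2 mesothelial genes summed to between 79.4 and 184 and between 132 and 197. Of all 23 lists, 1 gene outside the 10 had an unadjusted p under 0.05, the leukocyte gene Cd53, at -0.81 (standard error 0.33), and it did not pass the adjusted threshold.

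**Figure D5:**
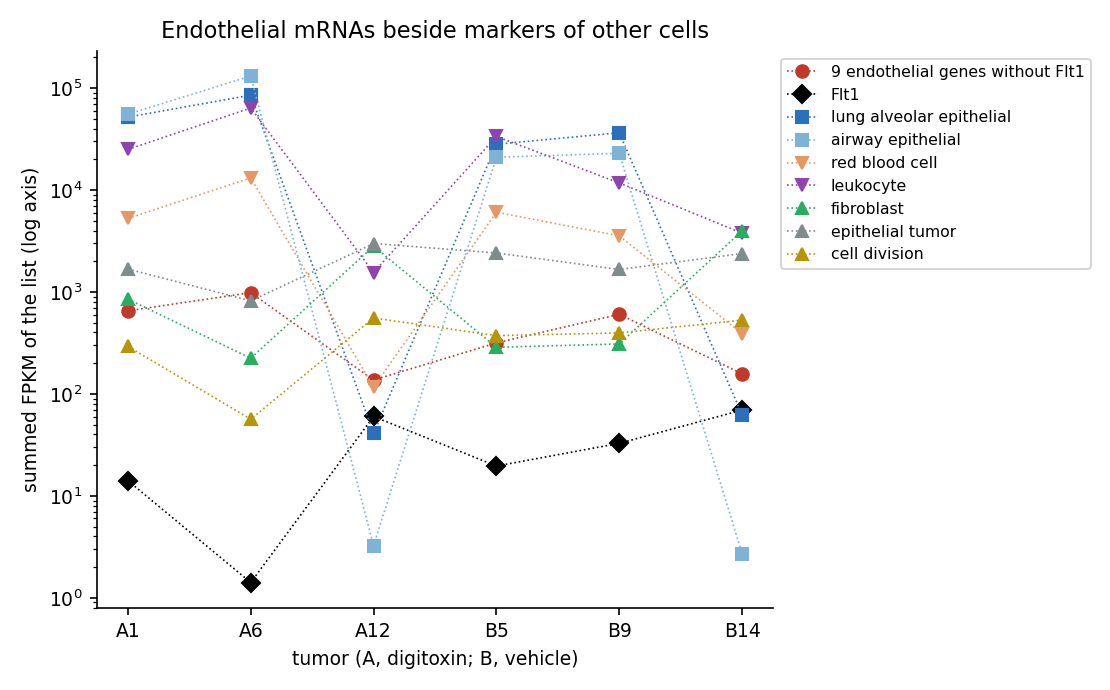
Summed FPKM (log axis) of the endothelial genes without Flt1, of Flt1 alone, and of marker lists for other cells in each tumor (A, digitoxin; B, vehicle); dotted lines only join the points of a list. The endothelial sum is 137 in A12 and 157 in B14, where the lung lists are lowest and Flt1 is highest.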

How the data were processed

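Messenger RNA was sequenced from 6 PAIII tumors, 3 per group. From TruSeq libraries read from 1 end, the authors obtained alignments by TopHat 2 with Bowtie 2, and they deposited FPKM from Cufflinks 2, with 1 column per tumor and no scaling between tumors named. The submitters' processing notes list the human build hg 19, while the loci are on rat chromosomes, so the build of the printed positions is unknown. For a symbol on several rows, the row of highest mean FPKM was taken. Depth is unknown, and reads were not analysed here.

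The groups were compared on log2(FPKM + 1) with limma 3.58.1 (R 4.3.3; lmFit, eBayes with a trend, two-sided) over 10749 rows averaging 1 FPKM or more, with Benjamini-Hochberg adjustment; the study's Cuffdiff needs the reads. A fold change on this scale understates the change of low mRNAs. Ratios were compared with exact permutation tests in Python 3.11.15 (scipy 1.17.1). In simulated data for this comparison, limma called 153 of the 200 rows given a log2 change of 4, and 10 unchanged rows, out of 10749. The simulated noise was independent between rows, whereas many rows here share the contrast of A12 and B14. The planted change exceeded that of every endothelial mRNA, so the power to call changes of their size was not tested. The numbers were treated as pairing the tumors only in the alternative with a block. Same-numbered tumors deviated together from their group means (r = 0.426, 0.606 and 0.869 for replicates 1, 2 and 3). Deviations from a group mean cancel within the group, so with A12 and B14 alike the remaining pairs tend to deviate together as well. The r of replicates 1 and 2 therefore does not show pairing. Nothing in the labels says what a number marks, and the crossed pairs A1 and B9 (r = 0.644) and A6 and B5 (r = 0.612) deviated together more closely than replicates 1 and 2 did, though less than replicate 3.

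The named genes are the 10 members, genes from the 23 lists with the highest mean FPKM or an unadjusted p under 0.05, and the 10 rows most like the mean of the members. Others were named after their values were seen. Among them were Dll1, Pgf, Tgfbr1, Tgfbr2, Smad5, Sox18, Epas1, Wt1, Robo4, Cd34, Prox1, Gp5, Col1a2, Fli1 and those most like Flt1 or Cdh5. The members and lists were chosen with earlier results of these data known. The other settings tried were median-of-ratios scaling, no filter on low FPKM, a pseudocount of 0.1, no trend in eBayes, the replicate block, each tumor left out, A12 and B14 left out, the alveolar list as a covariate, ratios of group means and, for the make-up, ratios to Pecam1.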

Additional observations from a re-analysis of the deposited data

How the results depend on the processing

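No row of the table passed the adjusted threshold under the alternatives, except 2 (Mir3561 and Mir3567) without B14 or without both A12 and B14, so from 0 to 2 with 1 tumor left out. Rows at an unadjusted p under 0.05, 36 in the fit reported, were 133 with no filter, 446 with the replicate block, 1183 without A12 and B14, 390 with the alveolar covariate, and from 13 to 2114 with 1 tumor left out. The block changed no call of an endothelial mRNA past the adjusted threshold.

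With 1 tumor left out, log2 fold changes ran from 0.0287 to 1.78 for Pecam1, -0.96 to 0.11 for Cdh5, -0.14 to 1.33 for Kdr, -2.60 to -0.27 for Flt1, 0.0246 to 1.504 for Tek, -0.11 to 0.60 for Tie1, 0.0343 to 1.30 for Vwf, -0.54 to 1.99 for Emcn, 0.17 to 1.55 for Esam and -0.11 to 1.09 for Eng. The median of the 10 ran from -0.11 to 1.31 and the number higher from 4 to 9. For the 83 other vessel genes the median ran from -0.18 to 0.52 and the number higher from 26 to 57. The causes were not tested.

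The log2 ratio to the members changed sign when taken to Pecam1 for Kdr (-0.29), Tek (-0.0722), Vwf (-0.16), Emcn (-0.15) and Eng (-0.38), which were above 0 with the geometric mean. With 1 tumor left out, the difference in this ratio ran from 0.11 to 0.95 for Pecam1, -1.11 to -0.22 for Cdh5, -0.0525 to 0.50 for Kdr, -3.43 to -0.18 for Flt1, 0.16 to 0.68 for Tek, -0.27 to 0.13 for Tie1, 0.12 to 0.47 for Vwf, -0.39 to 1.16 for Emcn, 0.25 to 0.73 for Esam and -0.20 to 0.30 for Eng. FPKM carry no depth, so the precision of low values such as Flt1 in A6 is unknown.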

Other observations

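The rows that ran most like Flt1 and like Cdh5, the 2 endothelial mRNAs outside the common pattern, were looked up after the values were seen. With 6 tumors and 10749 rows, an r near 1 can be found for many genes, so these values do not set Flt1 or Cdh5 apart. The rows most like Flt1 on log2(FPKM + 1) were Atic (r = 0.999), Tmem48 (0.999), Btbd10 (0.999), Kit (0.999) and Celf1 (0.999). Kit, the stem cell factor receptor of mast cells and of some lung capillary cells, was at an FPKM of 11.9 (A1), 1.67 (A6) and 41.6 (A12) with digitoxin and 17.4 (B5), 26.99 (B9) and 51.9 (B14) with vehicle, and Atic, an enzyme of purine synthesis, at 12.6, 2.36, 38.4, 16.3, 22.1 and 41.6 FPKM in the same order. In all of them A6 was lowest and A12 and B14 were highest.

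The rows most like Cdh5 were Dlg3 (r = 0.996), Zfp689 (0.992), Zhx3 (0.989), Fam53b (0.988) and Abca2 (0.985), all highest in B9. Bmpr2, a receptor that acts with endoglin and ALK1, was also among the 10 closest (r = 0.980), at 9.98 (A1), 7.34 (A6) and 6.08 (A12) with digitoxin and 5.85 (B5), 16.8 (B9) and 9.91 (B14) with vehicle.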
